A study of Homo sapiens with 24 samples.

Results

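The interferon-stimulated genes followed here are 44 human genes that cells switch on in response to interferons, and they were measured in HepaRG cells, an established human liver progenitor line, after siRNA transfection, Wnt3a and a soluble Wnt-binding protein. The members are a fixed list of textbook interferon-stimulated genes, and a probe was assigned to one through the RefSeq transcript that names it. Of the 44 genes, 43 had at least 1 named probe among the 20503 genes with a symbol on the array, and 53 probes in all. The transcript that the array names for IFI27 was not matched through the RefSeq table, so IFI27 was not analysed here. RSAD2 and CXCL11 were well above background on 0 and 1 of the 24 arrays and were not tested, which leaves 41 members among 24648 genes and unnamed transcripts. Of these 41, 39 were well above background on all 24 arrays, CXCL10 on 19 and CMPK2 on 11.

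Interferons are secreted proteins that bind receptors on nearby cells and activate the JAK kinases, which phosphorylate transcription factors such as STAT2. STAT2 and IRF9 are parts of a complex that binds the interferon-stimulated response element in promoters, and the gamma-activated site is the other DNA element of the pathway. The genes switched on include antiviral enzymes, membrane proteins that block virus entry, and the transcription factors STAT2, IRF1, IRF7 and IRF9 themselves, and in liver cells the same genes are known from the response to hepatitis viruses.

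The study asked which genes respond to Wnt signaling and its inhibition in these cells, and each of its 8 conditions has 3 arrays. Cells were left untransfected, were transfected with 80 pmol of a scrambled control siRNA or of siRNA to β-catenin (the protein that carries the Wnt signal to the nucleus, gene CTNNB1), or were left untransfected and given 300 ng/ml FZD8_CRD, the soluble Wnt-binding part of a Frizzled receptor. For each of these, other cells also received 200 ng/ml Wnt3a, and culture lasted 72 h. Between 58.3% and 66.5% of the spots of an array were well above background, and the number of arrays limits the precision. The untransfected cells did not go through the transfection step, so its effect and that of the control siRNA cannot be told apart. Each slide carried 1 array of every condition, at the same position on all 3 slides and with the Wnt3a samples in row 2, so position and condition cannot be told apart either. The study's methods describe cultures done as 3 separate experiments, and the p-values rest on the spread between these samples. In bulk samples, fewer cells with a transcript and less of it per cell cannot be told apart.

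Levels are log2 signals of a probe with the 75th percentile of all probes on that array taken as 0. A gene was called at a limma p, adjusted by Benjamini-Hochberg over all 24648 genes, under 0.05. In untransfected cells without Wnt3a, the liver and biliary markers KRT19, KRT18 and ALB had mean levels of 7.93, 7.16 and 9.41, HNF4A had -3.53, and EPCAM was well above background on 1 array. Of the leukocyte markers, PTPRC, CD14, CD68 and CD79A were well above background on all 24 arrays, with mean levels of -3.53, 1.203, 1.59 and 1.85 in those cells. CD3E and IL3RA were so on only some arrays and CLEC4C on 0. Which cells these transcripts came from was not tested. Each array was set against the mean of every condition, its own taken without it, over the 24648 genes centred on their means, a description added after the results were seen. The arrays share slides, and 19 of the 24 correlated best with their own condition. FZD8_CRD replicate 3 stands apart: it correlated at 0.743 with FZD8_CRD plus Wnt3a and at 0.17 with its own condition, where replicates 1 and 2 had 0.428 and 0.545. Its levels of TTR, APOA1 and CD68 were 5.11, 3.24 and 1.18, against 1.55, 0.45 and -0.11 on replicate 1 and 1.21, -0.01 and -0.14 on replicate 2, and the 3 arrays with Wnt3a as well had 5.19 to 5.30, 3.28 to 3.57 and 1.12 to 1.26. Whether the label of FZD8_CRD replicate 3 is right was not tested, so the comparisons that use this array are uncertain. Their counts and log2 differences are given with and without it, apart from those with another scaling or a block. Untransfected replicate 2 with Wnt3a correlated best with control siRNA plus Wnt3a (0.346, and 0.124 with its own). Untransfected replicates 1 and 3 with Wnt3a did so with untransfected cells without it (0.658 and 0.602, own 0.579 and 0.213), and β-catenin siRNA replicate 3 with Wnt3a with β-catenin siRNA alone (0.458, own 0.302). CTNNB1, the siRNA target, had levels of 3.35, 3.37 and 3.51 after control siRNA and 0.26, 0.35 and 0.52 after β-catenin siRNA. With Wnt3a its levels were 3.39, 3.62 and 3.67 after control siRNA and 0.33, 0.53 and 0.77 after β-catenin siRNA. All 6 β-catenin siRNA arrays lay below every control siRNA array, at a fold of 0.122 without Wnt3a (adjusted p = 1.15e-09, limma with Benjamini-Hochberg) and 0.123 with it (adjusted p = 7.62e-10).

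The RefSeq promoter table (GRCh38.p14, 250 bases before to 50 after each transcription start) held 36 of the 44 members in 47 windows, and not IFIT2, IFITM2, IRF7, MX2, OAS2, OASL, TRIM22 or USP18. The core of the interferon-stimulated response element, GAAA, any 2 bases, then GAAA, was searched on both strands and was found in 29 of the 47 windows (61.7%) and in 1255 of all 35116 windows (3.57%). The gamma-activated site TTCNNNGAA was found in 14 of the 47 windows (29.8%) and in 2689 of all windows (7.66%). By gene, 25 of 36 members (69.4%) held the response element core, against 4.38% of 27305 genes, and 13 (36.1%) held the gamma-activated site, against 9.38%. The 8 stretches printed here belong to the members whose arrays are given below and whose windows held the response element core. They were therefore chosen for holding a core, and members that responded without a core, such as SP110 and IRF1, are not printed. Capitals mark the matches to the core, read 5′ to 3′ on the strand of the gene. IFITM1 (chr11:313992-314017, plus strand), IFI6 (chr1:27672268-27672356, minus strand) and GBP1 (chr1:89065318-89065343, minus strand) were lower on β-catenin siRNA arrays than on control siRNA arrays. So were ISG15 (chr1:1013376-1013407, plus strand) and CXCL10 (chr4:76023701-76023726, minus strand). IFIT1 (chr10:89392499-89392537, plus strand), OAS3 (chr12:112938454-112938473, plus strand) and HERC5 (chr4:88456986-88457062, plus strand) were higher on control siRNA arrays than on untransfected ones. Without Wnt3a, IFIT1 and OAS3 were also lower on β-catenin siRNA arrays than on control siRNA arrays.
IFITM1: aacagcagGAAATAGAAActtaagag
IFI6: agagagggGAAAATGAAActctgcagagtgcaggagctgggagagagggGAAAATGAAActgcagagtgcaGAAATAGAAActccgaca
GBP1: cgaagtacTTTCAGTTTCatattact
ISG15: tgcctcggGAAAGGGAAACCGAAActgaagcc
CXCL10: atgttttgGAAAGTGAAAcctaattc
IFIT1: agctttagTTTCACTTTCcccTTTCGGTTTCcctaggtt
OAS3: ccgggcggGAAAACGAAAcc
HERC5: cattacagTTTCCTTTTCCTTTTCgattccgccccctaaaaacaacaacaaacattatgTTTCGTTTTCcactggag
IFI6 and HERC5 each carried 3 cores in the stretch, and the 2 cores of ISG15 overlap, as do the first 2 of HERC5. OAS3 and IFITM1 each had another core outside the printed stretch, at bases -143 to -134 and -6 to 3 from the start. STAT2, IRF1, IRF9, OAS1, HERC6, CMPK2, SAMD9L, IFI35, XAF1, SP110 and CXCL11 had no match to the core in these windows. A match describes the letters of the window and does not show that a factor binds there.

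**Figure D1:**
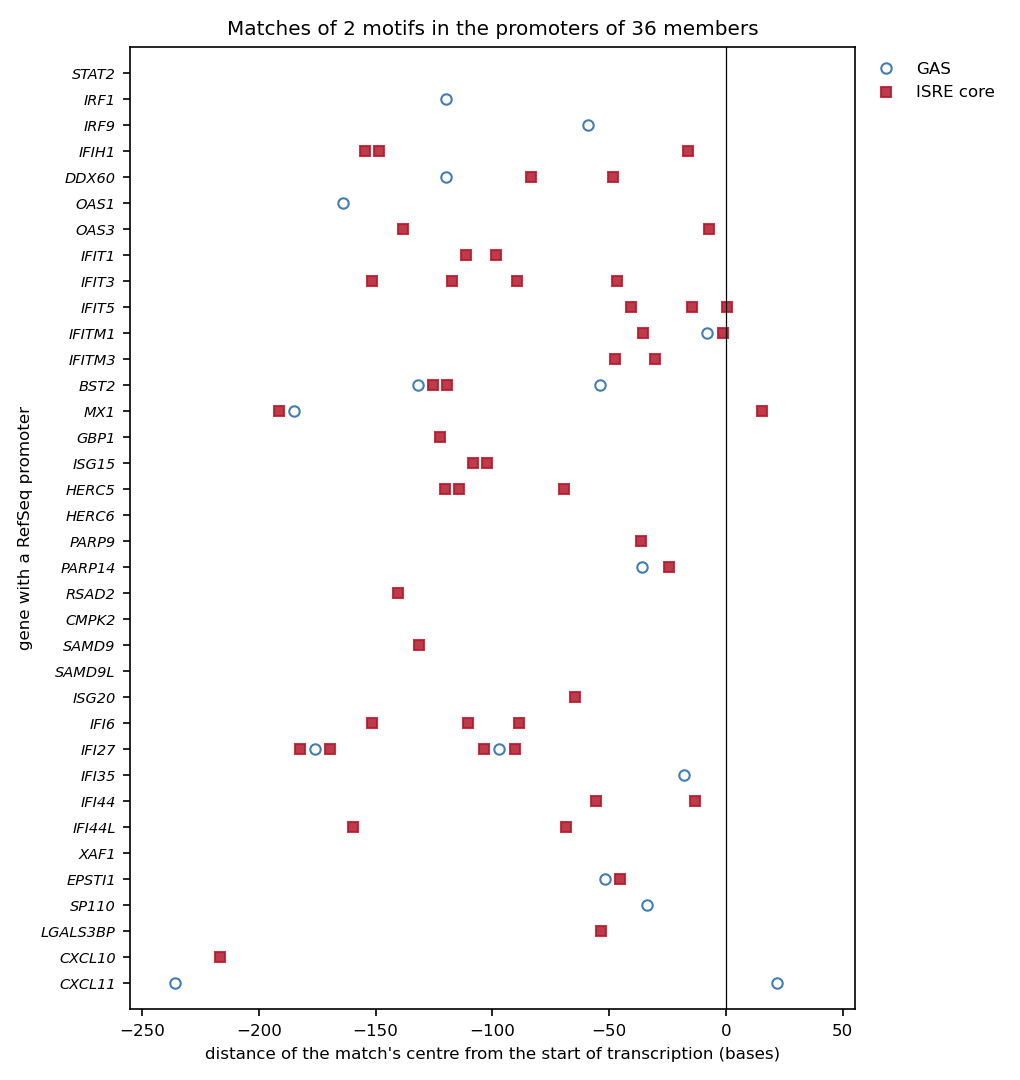
Positions of motif matches in the RefSeq promoter windows of 36 interferon-stimulated genes, with the distance from the transcription start in bases on the horizontal axis and 1 gene per line. Squares are the 49 matches to the response element core and circles the 16 matches to the gamma-activated site.

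The first question was what the interferon-stimulated genes did when β-catenin siRNA replaced the control siRNA, a comparison in which both groups were transfected. The study's methods give different suppliers for the β-catenin siRNA and the control siRNA. Loss of β-catenin and other effects of its siRNA therefore cannot be told apart. MX2, OASL, IFITM1, IFI6, SP110, GBP1, IFI44L, IFIT3 and IFITM2 fell both without and with Wnt3a. Without Wnt3a, 11 of the 41 members were called lower (26.8%) and 1, IFIT5, higher, while 6.16% of all genes were called lower and 4.4% higher. With Wnt3a, limma called 14 members lower (34.1%) and 0 higher, and 22 members had an unadjusted p under 0.05, while 6.5% of all genes were lower and 4.08% higher. The 9 members named first were the ones called lower in both Wnt3a states, as were 3.89% of all genes. The median log2 difference of the members was -0.23 without Wnt3a and -0.25 with it, and the median of all genes was -0.03 and -0.01. Without Wnt3a, the median of the members on slides 1, 2 and 3 was -0.21, -0.27 and -0.22, with 30, 31 and 29 of the 41 lower. With Wnt3a it was -0.29, -0.28 and -0.23, with 34, 32 and 31 lower. Neither CXCL10 nor CMPK2, the members that were dim on some arrays, was called here. On leaving out single arrays, the number called with Wnt3a was 9 without control siRNA replicate 2, 10 without β-catenin siRNA replicate 2 and 11 to 13 without any 1 of the others, and without Wnt3a it was 8 to 11. With the slide as a block, which leaves these medians as they are, limma called 18 lower and 1 higher in each state, where 9.87% of all genes were lower and 6.74% higher without Wnt3a and 9.51% and 6.09% with it. Called only with the block were CXCL10, EPSTI1, IFIT1, IFITM3, IRF1, ISG15 and XAF1, all lower, without Wnt3a (adjusted p = 0.0361, 0.0124, 0.0349, 0.00541, 0.0211, 0.0407 and 0.0163). With Wnt3a these were IFIT1, IRF7, IRF9 and MX1, lower, and IFIT5, higher (adjusted p = 0.0122, 0.0465, 0.0492, 0.0403 and 0.0157). In what follows, a gene is called or not called by the fit without the block unless the block is named.

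**Figure D2:**
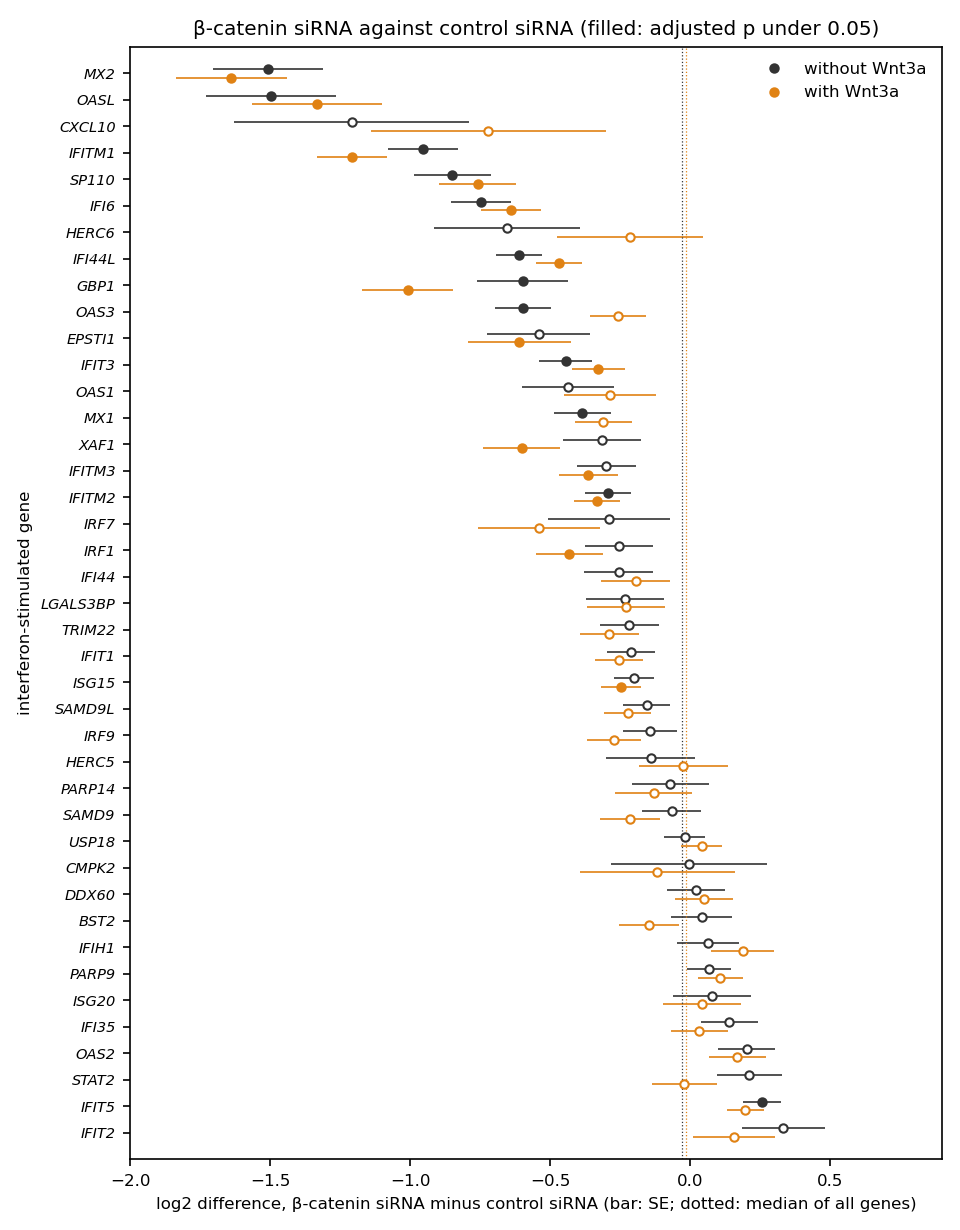
Log2 difference of each of the 41 interferon-stimulated genes between β-catenin siRNA and control siRNA (horizontal axis, 3 arrays a group), without Wnt3a in black and with Wnt3a in orange, with bars for the SE, filled points for an adjusted p under 0.05 and dotted lines at the median of all genes. The 9 genes with both points filled, from MX2 to IFITM2, all lie left of 0.

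Scaling the arrays to the Agilent spike-in probes instead of the 75th percentile moved the median of all genes from -0.03 to 0.05 for β-catenin siRNA against control siRNA without Wnt3a and from -0.01 to -0.22 with Wnt3a. All 12 called members kept their direction without Wnt3a under that scaling, and all 14 with Wnt3a. Relative to all genes, the median of the members under that scaling was -0.20 and -0.25. The number called was then 2 without Wnt3a (MX2 and OASL) and 5 with it (GBP1, IFITM1, MX2, OASL and SP110). The other calls of members given below for this comparison were lost under that scaling.

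The interferon-induced GTPases MX1, MX2 and GBP1 assemble on viral or vacuolar structures and block their replication. MX2 had levels of -1.87, -1.67 and -1.88 after control siRNA and -3.28, -3.30 and -3.36 after β-catenin siRNA. With Wnt3a it had -1.55, -1.35 and -1.44 after control siRNA and -3.06, -3.16 and -3.04 after β-catenin siRNA. In untransfected cells it had -2.60, -2.44 and -2.32 without Wnt3a and -1.93, -1.21 and -2.02 with it. The 6 β-catenin siRNA arrays were the lowest of all 24 for MX2, and the control siRNA arrays did not overlap with them. MX2 fell to a fold of 0.352 of the control siRNA (log2 -1.51, SE 0.20, adjusted p = 5.82e-05 with limma and Benjamini-Hochberg) without Wnt3a and to 0.321 (-1.64, adjusted p = 1.36e-05) with Wnt3a. On slides 1 to 3, the differences were -1.42, -1.63 and -1.48 without Wnt3a and -1.51, -1.81 and -1.59 with it. These calls of MX2 held without any single array and when arrays were scaled to the spike-ins.

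GBP1, which coats vacuoles that hold pathogens, had levels of -0.02, 0.19 and -0.27 after control siRNA and -0.54, -0.60 and -0.77 after β-catenin siRNA. With Wnt3a, GBP1 had 0.61, 0.93 and 0.66 after control siRNA and -0.17, -0.19 and -0.47 after β-catenin siRNA. Its groups did not overlap in either state, and its fold was 0.66 (log2 -0.60, SE 0.16, adjusted p = 0.0212, limma with Benjamini-Hochberg) without Wnt3a and 0.497 (-1.01, adjusted p = 0.000294) with it. Slides 1 to 3 gave -0.52, -0.78 and -0.49 without Wnt3a and -0.78, -1.12 and -1.13 with it. The GBP1 call without Wnt3a was lost without replicate 1 or 2 of the control siRNA (adjusted p = 0.071 and 0.112) and without replicate 2 or 3 of the β-catenin siRNA (adjusted p = 0.0506 and 0.103). MX1, the cytoplasmic relative of MX2, fell without Wnt3a (log2 -0.38, fold 0.766, adjusted p = 0.0177) in all 3 slides, and with Wnt3a its difference was -0.31 (adjusted p = 0.0553). The MX1 call was lost without control siRNA replicate 1, 2 or 3 (adjusted p = 0.0521, 0.0577 and 0.052) or β-catenin siRNA replicate 2 (adjusted p = 0.071).

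The membrane restriction factors IFITM1, IFITM2 and IFITM3 sit in cell and endosome membranes and hinder virus entry, and BST2 tethers budding virus. IFITM1 had levels of -2.02, -1.85 and -2.27 after control siRNA and -2.92, -3.03 and -3.06 after β-catenin siRNA. With Wnt3a, IFITM1 had -1.90, -1.74 and -1.94 after control siRNA and -2.91, -3.19 and -3.11 after β-catenin siRNA. Untransfected arrays lay between -2.25 and -1.80, so all 6 β-catenin siRNA arrays were below the 12 arrays of both other groups. IFITM1 fell to a fold of 0.516 without Wnt3a (log2 -0.95, SE 0.13, adjusted p = 5.82e-05, limma with Benjamini-Hochberg) and 0.432 with it (-1.21, adjusted p = 2.69e-06). The difference on slides 1 to 3 was -0.89, -1.19 and -0.78 without Wnt3a and -1.01, -1.45 and -1.17 with it, and the other probe of IFITM1 gave -0.96 and -0.78. IFITM2 fell in both states (log2 -0.29, adjusted p = 0.0259, and -0.33, adjusted p = 0.0111), and IFITM3 fell with Wnt3a (-0.36, adjusted p = 0.0294) and had a difference of -0.30 (adjusted p = 0.0769) without it. The call of IFITM2 without Wnt3a held on leaving out 1 of the 6 arrays, control siRNA replicate 3, and was lost without control siRNA replicate 1 or 2 (adjusted p = 0.112 and 0.103) or β-catenin siRNA replicate 1, 2 or 3 (adjusted p = 0.0611, 0.0924 and 0.0645). That of IFITM3 with Wnt3a was lost without control siRNA replicate 1 or 2 (adjusted p = 0.11 and 0.113) or β-catenin siRNA replicate 1, 2 or 3 (adjusted p = 0.0841, 0.0578 and 0.0882). IFITM1, IFITM2 and IFITM3 are nearly identical over long stretches, so a probe of one may also bind transcripts of the others and their separate values are uncertain. BST2 was not called (log2 0.04 and -0.15).

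The oligoadenylate synthetases OAS1, OAS2 and OAS3 make a messenger that activates RNase L when they bind double-stranded RNA, and OASL is a relative that binds RNA sensors. OASL had levels of -1.21, -1.41 and -1.39 after control siRNA and -2.71, -2.87 and -2.93 after β-catenin siRNA. With Wnt3a, OASL had -0.97, -0.73 and -1.08 after control siRNA and -2.61, -1.58 and -2.58 after β-catenin siRNA. Replicate 2 of the β-catenin siRNA with Wnt3a was the highest of its group for OASL and still lay below every control siRNA array. OASL fell to a fold of 0.354 (log2 -1.50, SE 0.23, adjusted p = 0.000292, limma with Benjamini-Hochberg) without Wnt3a and 0.397 (-1.33, adjusted p = 0.000664) with it, with -1.50, -1.45 and -1.54 on slides 1 to 3 without Wnt3a and -1.64, -0.86 and -1.50 with it. The OASL calls held without any single array and under scaling to the spike-ins.

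OAS3 had levels of 0.28, 0.08 and 0.17 after control siRNA and -0.41, -0.32 and -0.54 after β-catenin siRNA, and with Wnt3a 0.18, 0.10 and -0.00 against 0.02, -0.25 and -0.27. The OAS3 groups were apart without Wnt3a and overlapped with it. OAS3 fell without Wnt3a (log2 -0.60, SE 0.10, fold 0.66, adjusted p = 0.00057, limma with Benjamini-Hochberg; slides -0.69, -0.40 and -0.71), and with Wnt3a its difference was -0.26 (adjusted p = 0.119). With the mean of the 2 OAS3 probes in place of the brighter one, the call without Wnt3a was lost (adjusted p = 0.0688). The other OAS3 probe gave -0.25 without Wnt3a and -0.53 with it, so the state with the larger difference depended on the probe. OAS1 was not called (log2 -0.44 and -0.29). The 3 probes of OAS2 differed in sign, with 0.20 and 0.17 for the brightest and -0.41 and -0.34 and -0.20 and -0.21 for the others, so no direction is given for OAS2.

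IFI6, a mitochondrial and endoplasmic reticulum protein that limits cell death and flavivirus replication, had levels of 2.63, 2.59 and 2.44 after control siRNA and 1.80, 1.88 and 1.74 after β-catenin siRNA. With Wnt3a, IFI6 had 2.42, 2.51 and 2.39 after control siRNA and 1.71, 1.82 and 1.87 after β-catenin siRNA. The 6 β-catenin siRNA arrays lay below all control siRNA and all untransfected arrays, the lowest of which was 2.15. IFI6 fell to a fold of 0.595 (log2 -0.75, SE 0.11, adjusted p = 0.000131, limma with Benjamini-Hochberg) without Wnt3a and 0.642 (-0.64, adjusted p = 0.000447) with it. The slides gave -0.84, -0.71 and -0.70 without Wnt3a and -0.71, -0.68 and -0.53 with it. SP110, a nuclear body protein, had levels of 2.31, 2.28 and 2.52 after control siRNA and 1.57, 1.58 and 1.42 after β-catenin siRNA, and with Wnt3a 2.48, 2.58 and 2.58 against 1.95, 1.77 and 1.64. SP110 was lower on each of the 6 β-catenin siRNA arrays than on any control siRNA array, at a fold of 0.555 (log2 -0.85, SE 0.14, adjusted p = 0.000436) and 0.591 (-0.76, adjusted p = 0.000947). Slides 1 to 3 gave -0.74, -0.70 and -1.11 for SP110 without Wnt3a and -0.53, -0.81 and -0.94 with it.

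Of the other interferon-induced genes, IFI44L fell in both states (log2 -0.61, adjusted p = 6.83e-05, and -0.47, adjusted p = 0.00068, limma with Benjamini-Hochberg), with -0.56, -0.78 and -0.49 on the slides without Wnt3a. XAF1, which promotes cell death, and EPSTI1 fell with Wnt3a (log2 -0.60, adjusted p = 0.00647, and -0.61, adjusted p = 0.0371), and without Wnt3a had -0.31 and -0.54 (adjusted p = 0.173 and 0.0671). The EPSTI1 call was lost without control siRNA replicate 1 or 2 (adjusted p = 0.158 and 0.105) or β-catenin siRNA replicate 2 or 3 (adjusted p = 0.0931 and 0.207). IFI44, IFI35 and LGALS3BP were not called, with log2 differences of -0.25, 0.14 and -0.23 without Wnt3a and -0.19, 0.03 and -0.23 with it. Of the 8 tested genes of this group, 3 were lower (37.5%) without Wnt3a and 5 (62.5%) with it, where 6.16% and 6.5% of all genes were lower.

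Among the transcription factors, IRF1, an early target of interferon signaling, had levels of -0.41, -0.40 and -0.60 after control siRNA and -0.61, -0.71 and -0.86 after β-catenin siRNA. With Wnt3a, IRF1 had -0.43, -0.45 and -0.69 after control siRNA and -0.93, -0.89 and -1.05 after β-catenin siRNA. The IRF1 groups did not overlap in either state, IRF1 fell with Wnt3a (fold 0.742, log2 -0.43, SE 0.12, adjusted p = 0.0244, limma with Benjamini-Hochberg; slides -0.50, -0.43 and -0.36), and its difference without Wnt3a was -0.26 (adjusted p = 0.214). The call was lost without control siRNA replicate 1 or 2 (adjusted p = 0.1 and 0.0953) or β-catenin siRNA replicate 1 or 3 (adjusted p = 0.0516 and 0.103). IRF7, the factor that amplifies interferon production, had 0.81, 0.83 and 0.51 after control siRNA and 0.66, 0.36 and 0.26 after β-catenin siRNA. With Wnt3a it had 0.57, 0.60 and 0.53 after control siRNA and -0.02, 0.02 and 0.08 after β-catenin siRNA. The IRF7 arrays overlapped without Wnt3a and were apart with it, and neither difference was called (log2 -0.29, adjusted p = 0.504, and -0.54, adjusted p = 0.134). IRF9, the DNA-binding part of the STAT complex, had 0.54, 0.74 and 0.42 after control siRNA and 0.36, 0.52 and 0.40 after β-catenin siRNA, and with Wnt3a 0.63, 0.70 and 0.59 against 0.24, 0.44 and 0.42 (log2 -0.27, adjusted p = 0.0831). STAT2 had 4.87, 4.90 and 4.71 after control siRNA and 5.01, 5.13 and 4.98 after β-catenin siRNA, and with Wnt3a 5.01, 4.84 and 4.74 against 4.79, 4.90 and 4.83. STAT2 was not called (log2 0.21, adjusted p = 0.304, and -0.02, adjusted p = 0.97), and its arrays overlapped with Wnt3a.

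**Figure D3:**
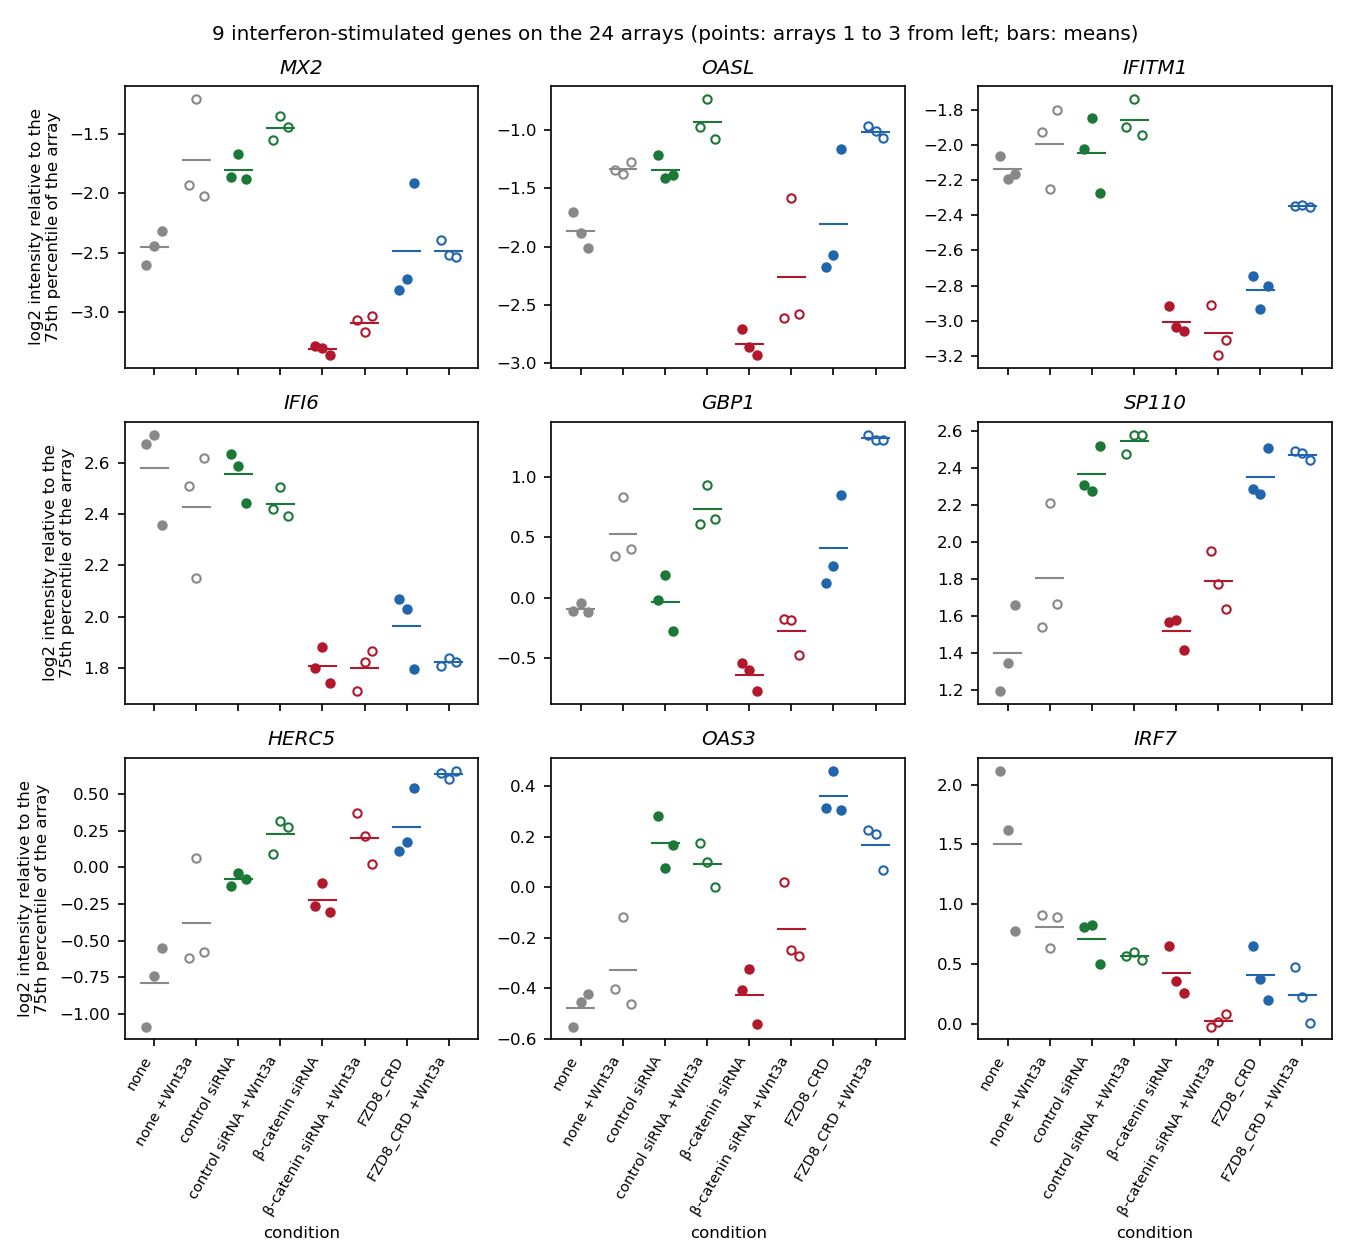
Log2 level relative to the 75th percentile of the array (vertical axis) of 9 interferon-stimulated genes in the untransfected, control siRNA, β-catenin siRNA and FZD8_CRD groups, with filled points for arrays without Wnt3a, open points for arrays with it, replicates 1 to 3 from left to right and bars at the mean of 3 arrays. The MX2 points of the β-catenin siRNA lie between -3.36 and -3.04, below those of every other group.

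The ISG15 system attaches the small protein ISG15 to other proteins, with HERC5 as the main ligase and USP18 as the protease that removes it. ISG15 had levels of 4.75, 4.77 and 4.66 after control siRNA and 4.55, 4.60 and 4.43 after β-catenin siRNA. With Wnt3a, ISG15 had 4.68, 4.78 and 4.77 after control siRNA and 4.46, 4.49 and 4.54 after β-catenin siRNA. All 6 β-catenin siRNA arrays were lower for ISG15 than all 6 of the control siRNA, and ISG15 fell with Wnt3a (fold 0.843, log2 -0.25, SE 0.07, adjusted p = 0.0277, limma with Benjamini-Hochberg; slides -0.22, -0.29 and -0.23). Without Wnt3a its difference was -0.20 (adjusted p = 0.0788). The ISG15 call was lost without control siRNA replicate 2 or 3 (adjusted p = 0.101 and 0.0915) or β-catenin siRNA replicate 1 or 2 (adjusted p = 0.0911 and 0.0842). HERC5 had -0.13, -0.04 and -0.08 after control siRNA and -0.26, -0.10 and -0.30 after β-catenin siRNA, and was not called (log2 -0.14, adjusted p = 0.718, and -0.02, adjusted p = 0.975). HERC6 and USP18 were not called either (log2 -0.65 and -0.02 without Wnt3a, adjusted p = 0.128 for HERC6). The other probe of HERC6 gave -0.14 without Wnt3a.

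The IFIT proteins bind viral RNA with foreign 5′ ends. IFIT3 fell in both states (log2 -0.44, adjusted p = 0.00431, and -0.33, adjusted p = 0.0292, limma with Benjamini-Hochberg), with -0.44, -0.43 and -0.46 on the slides without Wnt3a. With Wnt3a, the IFIT3 call was lost without control siRNA replicate 1 or 2 (adjusted p = 0.0726 and 0.154) or β-catenin siRNA replicate 1, 2 or 3 (adjusted p = 0.0553, 0.0823 and 0.0945). IFIT5 was the one member called higher (log2 0.26, fold 1.19, adjusted p = 0.0177 without Wnt3a), in all 3 slides, and with Wnt3a it had 0.20 (adjusted p = 0.0684). That call was lost without control siRNA replicate 1, 2 or 3 (adjusted p = 0.0575, 0.0519 and 0.0542) or β-catenin siRNA replicate 3 (adjusted p = 0.0956). IFIT1 had levels of 2.63, 2.55 and 2.53 after control siRNA and 2.36, 2.44 and 2.29 after β-catenin siRNA, and with Wnt3a 2.55, 2.74 and 2.53 against 2.29, 2.45 and 2.33. The IFIT1 groups did not overlap, and its differences were not called (log2 -0.21, adjusted p = 0.139, and -0.25, adjusted p = 0.0673). IFIT2 was not called, and its 2 probes gave 0.16 and -0.02 with Wnt3a.

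The RNA sensor IFIH1 and its partner DDX60, the ADP-ribosyltransferases PARP9 and PARP14, and the antiviral effectors CMPK2, SAMD9, SAMD9L, ISG20 and TRIM22 had 0 members called in either state with limma, and 2 of the 9, SAMD9L and TRIM22, had an unadjusted p under 0.05 with Wnt3a. The 2 probes of PARP9 differed in sign (0.07 and -0.42 without Wnt3a). CXCL10, the chemokine that draws T cells, had levels of -3.99, -4.11 and -4.13 after control siRNA and -5.09, -5.51 and -5.26 after β-catenin siRNA. With Wnt3a, CXCL10 had -4.42, -5.06 and -5.09 after control siRNA and -5.55, -5.74 and -5.44 after β-catenin siRNA, where 1 of 3 arrays was well above background. Its β-catenin siRNA arrays were the lower ones in both states without overlap, and the differences were not called (log2 -1.21, SE 0.42, adjusted p = 0.0738, and -0.72, adjusted p = 0.36, limma with Benjamini-Hochberg). With another background correction, normexp (offset 50), limma gave -0.57 (adjusted p = 0.042) and -0.18 (adjusted p = 0.717), so the first was called. With only the conditions compared in the fit, limma also called the difference without Wnt3a (adjusted p = 0.00483). The other probe of CXCL10 gave -1.28 and -1.14.

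The next comparison, control siRNA against no transfection, takes in the transfection step together with the siRNA. SP110, OAS3, HERC5 and IFIT1 rose in both Wnt3a states and IFIH1 fell in both. Without Wnt3a, 7 members were called higher (17.1%) and 6 lower (14.6%), while 12.3% of all genes were higher and 10.1% lower. With Wnt3a, 5 members were higher (12.2%) and 1 lower (2.44%), while 5.44% of all genes were higher and 3.59% lower. The median log2 difference of the members was 0.05 and 0.03, and that of all genes -0.03 and -0.02. Without Wnt3a the median of the members was 0.03, 0.00373 and 0.09 without control siRNA replicate 1, 2 or 3 and 0.03 without untransfected replicate 3. With Wnt3a it was 0.07 and 0.05 without untransfected replicate 1 or 2 and 0.10 without control siRNA replicate 3. Slides 1 to 3 gave medians of 0.06, -0.00186 and 0.03 for the members without Wnt3a and -0.02, 0.08 and -0.04 with it. Scaling to the spike-ins moved the median of all genes to -0.31 without Wnt3a and 0.25 with it, and SAMD9L, called higher without Wnt3a, then had the opposite direction, while all 13 called members kept theirs relative to all genes. The calls themselves were mostly lost under that scaling: limma called 1 member, ISG20, lower without Wnt3a and 0 with it, with 10 and 8 at an unadjusted p under 0.05. With the slide as a block, limma also called IFIT2, MX1 and PARP14 lower without Wnt3a, and IFIT3 higher and IFI44L lower with it. The count without Wnt3a was 8 without untransfected replicate 2. With Wnt3a it was 2 without untransfected replicate 1, 10 without untransfected replicate 2, 3 without untransfected replicate 3 and 2 without control siRNA replicate 2.

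SP110 had levels of 1.20, 1.35 and 1.66 in untransfected cells and 2.31, 2.28 and 2.52 after control siRNA, and with Wnt3a 1.54, 2.21 and 1.67 against 2.48, 2.58 and 2.58. All 6 control siRNA arrays lay above all 6 untransfected arrays for SP110, which rose to a fold of 1.96 (log2 0.97, SE 0.14, adjusted p = 0.000152, limma with Benjamini-Hochberg; slides 1.11, 0.93 and 0.86) without Wnt3a and 1.67 (0.74, adjusted p = 0.00466; slides 0.94, 0.37 and 0.91) with it. OAS3 had -0.55, -0.45 and -0.42 in untransfected cells and, with Wnt3a, -0.40, -0.12 and -0.46, all below its control siRNA arrays given before. Its fold was 1.57 (log2 0.65, adjusted p = 0.000251; slides 0.83, 0.53 and 0.59) without Wnt3a and 1.34 (0.42, adjusted p = 0.0139; slides 0.58, 0.22 and 0.46) with it. The OAS3 call with Wnt3a was lost without untransfected replicate 1 or 3 (adjusted p = 0.0931 and 0.0625) or control siRNA replicate 2 (adjusted p = 0.071). IFIT1 had 2.11, 2.25 and 2.17 in untransfected cells and 2.18, 2.12 and 2.02 with Wnt3a, again below all 6 control siRNA arrays, at a fold of 1.31 (log2 0.39, SE 0.09, adjusted p = 0.00273; slides 0.52, 0.30 and 0.35) and 1.41 (0.50, adjusted p = 0.00321; slides 0.37, 0.62 and 0.50).

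HERC5 had levels of -1.09, -0.74 and -0.55 in untransfected cells and -0.13, -0.04 and -0.08 after control siRNA, and with Wnt3a -0.62, 0.07 and -0.58 against 0.09, 0.31 and 0.28. Untransfected replicate 2 with Wnt3a was higher than the others of its group and came close to the control siRNA arrays. HERC5 rose to a fold of 1.64 (log2 0.71, SE 0.16, adjusted p = 0.00305, limma with Benjamini-Hochberg; slides 0.96, 0.70 and 0.47) without Wnt3a and 1.52 (0.60, adjusted p = 0.0224; slides 0.71, 0.25 and 0.85) with it. With Wnt3a the call was lost without untransfected replicate 1 or 3 (adjusted p = 0.162 and 0.0931) or control siRNA replicate 2 or 3 (adjusted p = 0.111 and 0.076). MX2 rose without Wnt3a (log2 0.65, fold 1.57, adjusted p = 0.0226), a call lost without untransfected replicate 1 or 2 (adjusted p = 0.1 and 0.0514) or control siRNA replicate 2 (adjusted p = 0.084), and with Wnt3a it had 0.27 (adjusted p = 0.472). IFIT3 and SAMD9L also rose without Wnt3a (log2 0.31 and 0.25). Their calls held without some single arrays and were lost for IFIT3 without control siRNA replicate 1 or 2 (adjusted p = 0.0769 and 0.0677) or untransfected replicate 3 (adjusted p = 0.107), and for SAMD9L without control siRNA replicate 1, 2 or 3 (adjusted p = 0.0751, 0.0854 and 0.104) or untransfected replicate 2 or 3 (adjusted p = 0.121 and 0.12).

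IFI35 had levels of 0.81, 0.71 and 1.11 in untransfected cells with Wnt3a and 1.13, 1.502 and 1.24 after control siRNA with Wnt3a. The groups of IFI35 lay close together without overlap, and it rose (log2 0.42, SE 0.10, fold 1.34, adjusted p = 0.0154, limma with Benjamini-Hochberg; slides 0.33, 0.80 and 0.14). That call was lost without untransfected replicate 1 (adjusted p = 0.0964) or control siRNA replicate 2 (adjusted p = 0.12). IRF7 had 2.12, 1.62 and 0.78 in untransfected cells without Wnt3a and 0.81, 0.83 and 0.51 after control siRNA, so the untransfected arrays were spread widely and the groups overlapped. IRF7 fell (log2 -0.79, SE 0.22, fold 0.578, adjusted p = 0.0124; slides -1.31, -0.79 and -0.27), and the call was lost without untransfected replicate 1 (adjusted p = 0.109) or control siRNA replicate 3 (adjusted p = 0.061). IFIH1, a sensor of long double-stranded RNA, fell in both states (log2 -0.38 and -0.39). Its call was lost without untransfected replicate 2 (adjusted p = 0.0907) or control siRNA replicate 3 (adjusted p = 0.067), and with Wnt3a without untransfected replicate 1 or 3 (adjusted p = 0.21 and 0.129) or control siRNA replicate 2 or 3 (adjusted p = 0.144 and 0.13). ISG20, an exonuclease that degrades RNA, and IFI44L fell without Wnt3a (log2 -0.62 and -0.34) and kept the call without any single array. BST2 and XAF1 fell too (log2 -0.32 and -0.42). The BST2 call was lost without control siRNA replicate 1 or 3 (adjusted p = 0.0653 and 0.228) or untransfected replicate 2 (adjusted p = 0.21). The XAF1 call was lost without control siRNA replicate 1 or 2 (adjusted p = 0.138 and 0.102) or untransfected replicate 1, 2 or 3 (adjusted p = 0.0919, 0.0556 and 0.0885). The remaining oligoadenylate synthetases, IFITM genes and transcription factors were not called in either state. The probes of OAS2 gave 0.12, 0.75 and 0.64 without Wnt3a, the first from the brightest, and with Wnt3a the 2 probes of HERC6 (-0.17 and 0.21) and of XAF1 (-0.09 and 0.10) differed in sign.

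Markers of the cells moved in the same comparisons, and their part in the values of the interferon-stimulated genes was not tested. Of 12 hepatic and biliary markers, 11 were tested, and control siRNA against no transfection gave 5 lower (45.5%) without Wnt3a and 2 (18.2%) with it, where 10.1% and 3.59% of all genes were lower. ALB, the main plasma protein of hepatocytes, had -1.65 and -2.09. Without Wnt3a, TTR, APOA1 and HNF4A had -2.40, -2.18 and -0.997. β-catenin siRNA against control siRNA gave 0 called without Wnt3a, with 3 at an unadjusted p under 0.05 in limma, and 2 higher, ALB with 1.19 among them, and 1 lower (SOX9 -0.57) with it. Of 6 tested leukocyte markers, 1, CD14, which liver cells also make, was lower with β-catenin siRNA against control siRNA (log2 -1.12 and -1.30), and 0 were called for control siRNA against no transfection, with 1 and 2 at an unadjusted p under 0.05. Of the 10 calls of the hepatic and biliary markers in these comparisons, 4 held on leaving out any single array, as did both CD14 calls.

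Against cells that were not transfected, β-catenin siRNA gave 15 members lower and 3 higher without Wnt3a, where 10.2% of all genes were lower and 9.66% higher. With Wnt3a it gave 15 lower and 4 higher, where 9.27% were lower and 10% higher. The median of the members was -0.22 in both states, and that of all genes -0.06 and -0.05. With Wnt3a the median of the members was -0.34 without untransfected replicate 2. This comparison shares its β-catenin siRNA arrays with the one against control siRNA and its untransfected arrays with the one before, so the 3 sets of values are given side by side. IFITM1 had log2 differences of 0.09, -0.95 and -0.86 without Wnt3a for control siRNA against none, β-catenin siRNA against control siRNA, and β-catenin siRNA against none. In the same order, IFI6 had -0.02, -0.75 and -0.77, GBP1 0.05, -0.60 and -0.55, OASL 0.53, -1.50 and -0.97, and MX2 0.65, -1.51 and -0.86. SP110 had 0.97, -0.85 and 0.12, and OAS3 0.65, -0.60 and 0.05, so that their β-catenin siRNA arrays were not called against untransfected ones. HERC5 had 0.71, -0.14 and 0.57 and IFIT1 0.39, -0.21 and 0.18. IRF7 fell against untransfected cells (log2 -1.08, fold 0.473, adjusted p = 0.00168, and with Wnt3a -0.79, fold 0.579, adjusted p = 0.0142, limma with Benjamini-Hochberg), as did CXCL10 (-1.60 in both states, adjusted p = 0.0105 and 0.0103). CXCL10 was well above background on 1 of the 3 β-catenin siRNA arrays with Wnt3a, so that its size there is uncertain. With normexp its differences were -0.74 and -0.54 (adjusted p = 0.00497 and 0.0374), and with spike-in scaling the call with Wnt3a was lost (adjusted p = 0.0614). With only the conditions compared in the fit, limma called CXCL10 in neither state (adjusted p = 0.0622 without Wnt3a and 0.103 with it). The IRF7 call with Wnt3a was lost without untransfected replicate 1 (adjusted p = 0.0594), and the CXCL10 calls without untransfected replicate 1 (adjusted p = 0.085, and 0.0551 with Wnt3a) or, with Wnt3a, untransfected replicate 3 (adjusted p = 0.0638). The count was 11 without untransfected replicate 1 in either state, and 13 to 18 without Wnt3a and 15 to 18 with it on leaving out any other single array. With the arrays scaled to the spike-ins it was 8 without Wnt3a and 1, MX2, with it, all lower. With the slide as a block, BST2, EPSTI1, IFIH1 and IRF1 were also called lower and IFIT1 higher without Wnt3a, and BST2, LGALS3BP and PARP14 lower and IFIT1 and IFIT5 higher with it.

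Markers moved here as well, and their part was not tested. Of the 11 tested hepatic and biliary markers, 3 were lower (27.3%) in each state, KRT18 (log2 -0.55 and -0.63), SOX9 (-0.57 and -1.06) and ALB (-0.89 and -0.90). Of the 6 tested leukocyte markers, 2 were lower (33.3%) in each state, CD14 (-0.91 and -0.87) and CD68 (-0.86 and -0.80). The calls of KRT18 and CD14, and that of SOX9 with Wnt3a, held without any single array. Without Wnt3a, the SOX9 call was lost without replicate 1 or 2 of the untransfected cells (adjusted p = 0.162 and 0.0509) or of the β-catenin siRNA (adjusted p = 0.0958 and 0.112). The ALB call was lost there without replicate 1 or 2 of the untransfected cells (adjusted p = 0.204 and 0.113) or replicate 1, 2 or 3 of the β-catenin siRNA (adjusted p = 0.0736, 0.179 and 0.0814), and with Wnt3a without untransfected replicate 1 or 3 (adjusted p = 0.242 and 0.177) or β-catenin siRNA replicate 1 or 2 (adjusted p = 0.227 and 0.0959). The CD68 call was lost without untransfected replicate 1 or 2 (adjusted p = 0.0891 and 0.0516) or β-catenin siRNA replicate 2 (adjusted p = 0.0551), and with Wnt3a without untransfected replicate 1 or 3 (adjusted p = 0.087 and 0.0604) or β-catenin siRNA replicate 1 or 2 (adjusted p = 0.077 and 0.0642).

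**Figure D4:**
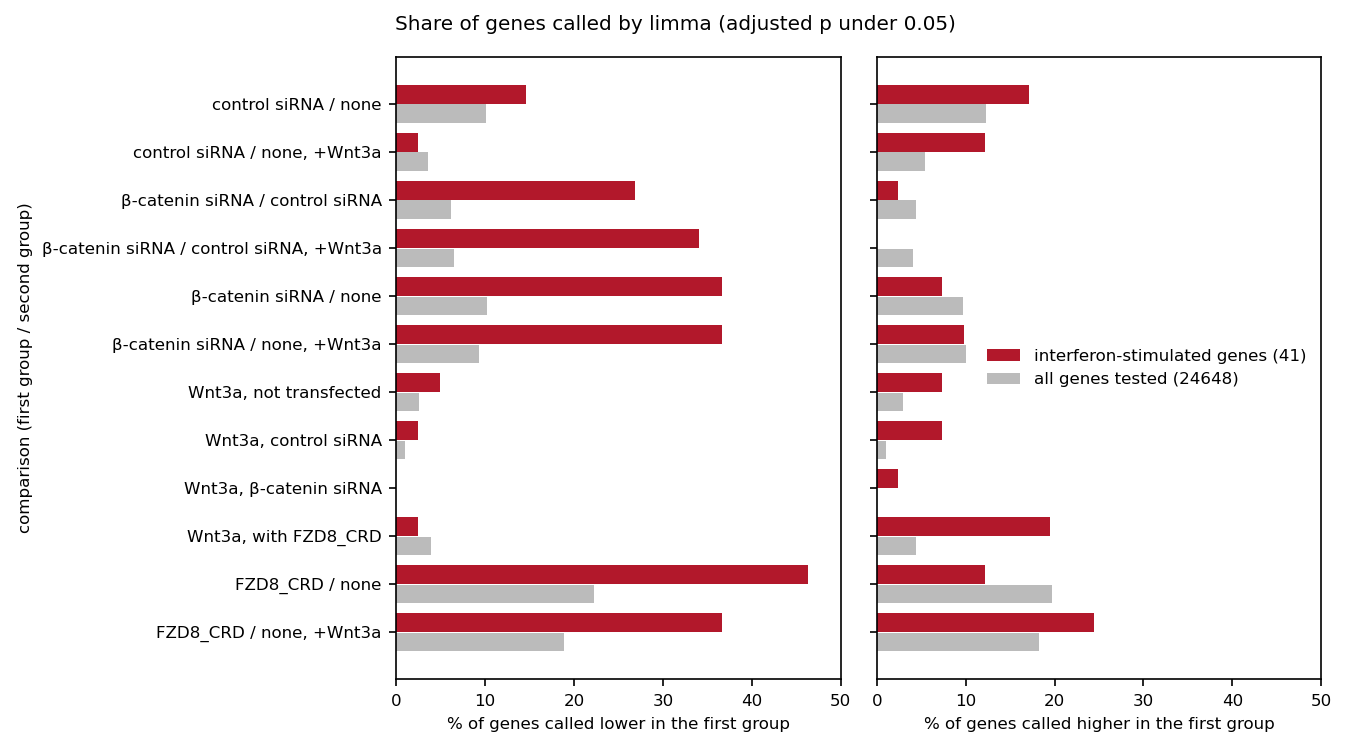
Percentage of genes called lower (left) and higher (right) by limma at an adjusted p under 0.05 in each of 12 comparisons, for the 41 interferon-stimulated genes (red) and for all 24648 genes tested (grey). For β-catenin siRNA against control siRNA without Wnt3a, 26.8% of the members and 6.16% of all genes were lower.

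Wnt3a was compared with no Wnt3a inside each group. Untransfected cells had 3 members higher (MX2, GBP1 and SAMD9L) and 2 lower (IFIH1 and MX1), where 2.99% of all genes were higher and 2.61% lower. After control siRNA, 3 were higher (GBP1, SAMD9L and IFI44L) and 1 lower (IFIH1), where 1.09% were higher and 1.02% lower. After β-catenin siRNA, limma called 1 higher (IFI44L, log2 0.50, adjusted p = 0.0308) and 0 lower, with 10 at an unadjusted p under 0.05, where 0.0365% of all genes were higher and 0.00406% lower. With FZD8_CRD, 8 were higher and 1 lower, where 4.36% were higher and 3.94% lower. Without FZD8_CRD replicate 3, the array that stands apart, 11 were higher and 9 lower, where 8.69% of all genes were higher and 11.3% lower. Called only then were HERC5, IFI44L and OAS1, higher, and CXCL10, IFIT1, IFIT3, IFITM2, IFITM3, LGALS3BP, STAT2 and TRIM22, lower. Wnt3a samples shared a row of the slide, so the row and Wnt3a cannot be told apart. GBP1 had levels of -0.11, -0.04 and -0.12 in untransfected cells and 0.34, 0.84 and 0.40 with Wnt3a, without overlap. GBP1 had log2 differences with Wnt3a of 0.62 (adjusted p = 0.0316, limma with Benjamini-Hochberg) in untransfected cells, 0.77 (adjusted p = 0.0176) after control siRNA, 0.36 (adjusted p = 0.448) after β-catenin siRNA and 0.91 (adjusted p = 0.0024) with FZD8_CRD, where it had 1.13 without FZD8_CRD replicate 3. In untransfected cells the GBP1 call was lost without replicate 1 or 2 of the cells without Wnt3a (adjusted p = 0.1 and 0.0867) or replicate 2 with it (adjusted p = 0.255). After control siRNA it was lost without replicate 1 or 3 of the cells without Wnt3a (adjusted p = 0.077 and 0.108) or replicate 2 or 3 with it (adjusted p = 0.118 and 0.0548). MX2 rose in untransfected cells (log2 0.74, fold 1.67, adjusted p = 0.0357), a call lost without replicate 1 or 2 of the cells without Wnt3a (adjusted p = 0.14 and 0.102) or replicate 2 with it (adjusted p = 0.292). There, the calls of SAMD9L and IFIH1 were lost without replicate 2 of the cells without Wnt3a (adjusted p = 0.0821 and 0.0583) or with it (adjusted p = 0.149 and 0.0855), and that of MX1 without replicate 2 with it (adjusted p = 0.0686). After control siRNA, the IFIH1 call was lost without replicate 1 or 3 of the cells without Wnt3a (adjusted p = 0.0829 and 0.0598) or replicate 2 or 3 with it (adjusted p = 0.0888 and 0.0765). The IFI44L call there was lost without replicate 1 or 3 of the cells without Wnt3a (adjusted p = 0.0968 and 0.155) or replicate 1, 2 or 3 with it (adjusted p = 0.0779, 0.14 and 0.0566). The SAMD9L call after control siRNA and the IFI44L call after β-catenin siRNA were lost without any 1 of their 6 arrays (adjusted p between 0.0716 and 0.189, and between 0.0758 and 0.223). SAMD9L had the opposite direction in untransfected cells when arrays were scaled to the spike-ins, which moved the median of all genes from 0.01 to -0.37, while relative to all genes all 5 called members, SAMD9L among them, kept their direction. Under that scaling limma called 0 members in untransfected, control siRNA, β-catenin siRNA and FZD8_CRD cells, with 11, 2, 0 and 3 at an unadjusted p under 0.05. With the slide as a block it called 10, 6, 1 and 15. Of all genes, 6.09%, 2.19%, 0.122% and 6.86% were then higher and 5.36%, 2.17%, 0.0649% and 6.52% lower. Called only with the block were IFI44L and SAMD9, higher, and IFIT3, IRF7 and XAF1, lower, in untransfected cells, and IFIT3 and MX1, lower, after control siRNA. With FZD8_CRD these were IFI44L and OAS1, higher, and CXCL10, IFIT3, IRF1 and STAT2, lower.

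Markers of the cells moved with Wnt3a in FZD8_CRD cells, and their part was not tested. Of the 11 tested hepatic and biliary markers, 3 were higher there (27.3%), AFP, APOA1 and TTR (log2 0.66, 2.22 and 2.62), and of the 6 tested leukocyte markers 1 (16.7%), CD68 (0.90). Without FZD8_CRD replicate 3 these had 0.84, 3.23, 3.86 and 1.34, all called, and KRT19 (0.34), SOX9 (-0.54) and CD14 (-0.66) were called too. Without any 1 of the other 5 arrays, the calls of APOA1, TTR and CD68 were lost (adjusted p between 0.0825 and 0.275, 0.0738 and 0.226, and 0.059 and 0.193). That of AFP was lost without replicate 1 or 2 of FZD8_CRD alone (adjusted p = 0.11 and 0.101) or with Wnt3a (adjusted p = 0.0519 and 0.0605). In untransfected, control siRNA and β-catenin siRNA cells limma called 0 markers of either list, with 2, 2 and 2 of the hepatic and biliary markers and 0 of the leukocyte markers at an unadjusted p under 0.05.

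The counts for Wnt3a depended on single arrays. In untransfected cells it was 3, 1 and 12 without replicate 1, 2 or 3 of the cells without Wnt3a, and 0 and 9 without replicate 2 or 3 with it. After control siRNA it was 0 without replicate 1 or 3 of the cells without Wnt3a or replicate 2 or 3 with it, and 2 without replicate 1 with it. After β-catenin siRNA it was 0 without any 1 of the 6 arrays. With FZD8_CRD it was 1 without replicate 1 or 2 of the cells without Wnt3a, 20 without replicate 3, and 2, 2 and 3 without replicate 1, 2 or 3 with it. Whether the Wnt3a response of a member differed between groups was tested as an interaction with limma. It gave 0 members for control siRNA against no transfection (1 at an unadjusted p under 0.05, where 0% of all genes were called), 0 for β-catenin siRNA against control siRNA (1, where 0.0162% were called) and 0 for FZD8_CRD against none (12, where 0.073% were called). For FZD8_CRD the count was 7, 5 higher and 2 lower, without replicate 3 of FZD8_CRD alone, where 3.24% of all genes were higher and 4.52% lower, and 1 without untransfected replicate 3, with or without Wnt3a.

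FZD8_CRD against untreated cells, neither of them transfected, gave 19 members lower and 5 higher without Wnt3a, where 22.2% of all genes were lower and 19.7% higher. With Wnt3a, 15 were lower and 10 higher, where 18.9% of all genes were lower and 18.2% higher. The median of the members was -0.16 and -0.17, and that of all genes -0.09 and -0.08. Without untransfected replicate 2 the median of the members without Wnt3a was -0.06, above that of all genes (-0.10), without untransfected replicate 1 it was -0.25 and without FZD8_CRD replicate 3 -0.20. Scaling to the spike-ins moved the median of all genes to -0.46 and -0.15, and all 24 and 25 called members kept their direction. The number called was then 19, all lower, without Wnt3a, and 1 higher and 4 lower with it, so that the rises without Wnt3a given below were not called under that scaling. With the slide as a block, SAMD9 was also called, higher, without Wnt3a, and IFIT5 and IRF1, lower, with it. Without FZD8_CRD replicate 3, 15 members were lower and 5 higher without Wnt3a, where 20.4% of all genes were lower and 20.2% higher. BST2, CXCL10, GBP1, IFIT2, IFITM3, LGALS3BP and STAT2 then lost their calls (adjusted p between 0.0545 and 0.224), and HERC6, TRIM22 and USP18 were called. SP110, HERC5, OAS3, IFITM1, IFI6 and IRF9 kept theirs, with 0.87, 0.94, 0.86, -0.70, -0.53 and -0.65. On leaving out any single array, the count was 20 to 25 in either state.

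Markers of the cells moved with FZD8_CRD too, and their part in these values was not tested. Of the 11 tested hepatic and biliary markers, 2 were higher (18.2%) and 6 lower (54.5%) without Wnt3a, and 2 higher (18.2%) and 4 lower (36.4%) with it. ALB had -1.81 and -1.07, HNF4A -1.70 and -1.22, SOX9 -0.53 and -0.75, KRT19 0.36 and 0.59 and AFP 1.01 and 1.45, all called. TTR and APOA1 had -2.41 and -2.76 without Wnt3a. Without FZD8_CRD replicate 3, the differences without Wnt3a were -1.78 for ALB, -1.92 for HNF4A, -0.32 for SOX9, 0.23 for KRT19, 0.83 for AFP, -3.66 for TTR and -3.76 for APOA1. Without Wnt3a, the call of TTR was lost without FZD8_CRD replicate 1 or 2 (adjusted p = 0.0617 and 0.0798) or untransfected replicate 1 (adjusted p = 0.0851), that of SOX9 without FZD8_CRD replicate 3 or untransfected replicate 1 (adjusted p = 0.145 and 0.122), and that of KRT19 without FZD8_CRD replicate 3 or untransfected replicate 3 (adjusted p = 0.0676 and 0.0633). With Wnt3a, the ALB call was lost without untransfected replicate 1 or 3 (adjusted p = 0.0727 and 0.0545) and that of HNF4A without untransfected replicate 1 (adjusted p = 0.0501). Of the 6 tested leukocyte markers, 3 were lower without Wnt3a, CD68 (log2 -1.27; slides -2.03, -1.82 and 0.02), CD79A (-0.74) and IL3RA (-0.70), and 1, CD79A (-0.78), with it. Without FZD8_CRD replicate 3, CD68, CD79A and IL3RA had -1.71, -0.87 and -0.53 without Wnt3a. The IL3RA call was lost without FZD8_CRD replicate 2 or 3 (adjusted p = 0.0671 and 0.143) or untransfected replicate 1 or 3 (adjusted p = 0.0663 and 0.176).

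Among the transcription factors, STAT2 had levels of 4.79, 4.78 and 4.20 with FZD8_CRD against 4.90, 5.04 and 4.99 without, and with Wnt3a 4.27, 4.37 and 4.22 against 5.16, 4.99 and 4.92. STAT2 fell (log2 -0.38, fold 0.768, adjusted p = 0.012, and with Wnt3a -0.74, fold 0.599, adjusted p = 6.19e-05, limma with Benjamini-Hochberg), and its call without Wnt3a was lost without FZD8_CRD replicate 3 (log2 -0.19, adjusted p = 0.0907), whose level lay near those of the arrays with Wnt3a. IRF9 had -0.17, -0.17 and 0.09 with FZD8_CRD against 0.38, 0.64 and 0.42 and fell (log2 -0.56, adjusted p = 0.000116). SP110, HERC5 and OAS3 rose in both states, at folds of 1.94, 2.1 and 1.79 without Wnt3a and 1.59, 2.02 and 1.41 with it, and all 6 FZD8_CRD arrays lay above all 6 untransfected ones for each. HERC5 had 0.11, 0.17 and 0.54 with FZD8_CRD and 0.64, 0.61 and 0.66 with Wnt3a as well. IFITM1 and IFI6 fell in both states (log2 -0.69 and -0.35 for IFITM1, -0.62 and -0.60 for IFI6), and their FZD8_CRD arrays lay below all untransfected arrays. The IFITM1 call with Wnt3a was lost without untransfected replicate 1 or 3 (adjusted p = 0.104 and 0.142) or FZD8_CRD replicate 1, 2 or 3 (adjusted p = 0.072, 0.0672 and 0.0691). CXCL10 had -6.00, -6.13 and -6.13 with FZD8_CRD and Wnt3a, well above background on 0 of 3 arrays and at or near the floor of -6.13, against -3.65, -5.12 and -3.17 with Wnt3a alone, and was at least 4.20-fold lower (adjusted p = 0.000566). That bound holds for the scaling used here; with normexp and its offset of 50 the CXCL10 difference was smaller, log2 -0.67 (adjusted p = 0.00475). The untransfected arrays used here are the same ones that the siRNA groups were compared with, so these values share them.

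The genes that carry the interferon signal were followed as a list of 45, of which 34 were tested. For β-catenin siRNA against control siRNA, limma called 3 higher (8.82%) and 3 lower (8.82%) without Wnt3a, where 4.4% of all genes were higher and 6.16% lower, and 1 higher (2.94%) and 4 lower (11.8%) with it, where 4.08% were higher and 6.5% lower. The medians were -0.08 and -0.05. For control siRNA against no transfection it called 5 higher (14.7%) and 2 lower (5.88%) without Wnt3a, where 12.3% of all genes were higher and 10.1% lower. With Wnt3a it called 4 higher (11.8%) and 0 lower, with 7 at an unadjusted p under 0.05, where 5.44% of all genes were higher and 3.59% lower. STING1, the adaptor of the DNA sensor, gave 0.22 and 0.33 for control siRNA against none and -0.48 and -0.45 for β-catenin siRNA against control siRNA, all called. IFNGR1, the receptor for interferon gamma, fell with β-catenin siRNA against control siRNA with Wnt3a (log2 -0.97, adjusted p = 0.000221) and had -0.45 (adjusted p = 0.0652) without it. Among the other receptors, IFNAR1 rose and IFNAR2 fell with β-catenin siRNA against control siRNA without Wnt3a (log2 0.20 and -0.43), and IL10RB rose with control siRNA against none with Wnt3a (0.24). SOCS1, an inhibitor of the JAK kinases, fell with β-catenin siRNA against control siRNA with Wnt3a (log2 -0.87). Of the effectors of double-stranded RNA, ADAR rose with control siRNA against none (log2 0.34 and 0.21) and ZC3HAV1 with β-catenin siRNA against control siRNA (0.25 and 0.30). The sensor TLR3 and the kinase IKBKE rose and the sensor DHX58 and the adaptor TICAM1 fell with control siRNA against none without Wnt3a (log2 0.39, 0.52, -0.40 and -0.33), and TICAM1 rose with β-catenin siRNA against control siRNA (0.24). TLR8 and ZBP1 were well above background on 0 arrays. Of the 22 calls of the pathway list in the 4 comparisons, 11 held on leaving out any single array and 11 were lost for at least 1 array, calls of ADAR, DHX58, IFNAR1, IKBKE, IL10RB, STING1, TICAM1 and ZC3HAV1 among them.

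Of the 10 interferon ligands on the list, IFNE and IFNL2 were tested. IFNA2, IFNB1, IFNG, IFNW1, IFNL1 and IFNL3 were well above background on 0 arrays and IFNK on 1, and IFNA1 had no probe. Limma called 0 of the 2 tested ligands in the siRNA comparisons against control siRNA or of control siRNA against none, and IFNE had an unadjusted p of 0.0397 without Wnt3a and 0.00677 with it for β-catenin siRNA against control siRNA (log2 -0.59 and -0.81). A further list of 32 interferon-induced genes outside the 44, all tested, had 0 higher and 6 lower (18.8%) without Wnt3a for β-catenin siRNA against control siRNA in limma, with 10 at an unadjusted p under 0.05, where 4.4% of all genes were higher and 6.16% lower. With Wnt3a it had 0 higher and 5 lower (15.6%), with 7 at an unadjusted p under 0.05, where 4.08% were higher and 6.5% lower. Its median was -0.11 and -0.10. APOBEC3G, a cytidine deaminase that restricts retroviruses, had -0.73 and -0.51, and APOL1 -0.76 and -0.64, all called. For control siRNA against no transfection the list had 4 higher (12.5%) and 5 lower (15.6%) without Wnt3a, where 12.3% of all genes were higher and 10.1% lower, and 3 higher (9.38%) and 1 lower (3.12%) with it, where 5.44% were higher and 3.59% lower. APOBEC3G had 0.65 and 0.36 there, both called. Without Wnt3a, TNFSF10, SHFL, GBP3 and BATF2 fell there (log2 -1.42, -0.75, -0.57 and -0.54), and GBP3 had -0.47, called, with β-catenin siRNA against control siRNA with Wnt3a. Of the 24 calls of this list in the 4 comparisons, 10 held on leaving out any single array, those of APOBEC3G, APOL1, BATF2 and TNFSF10 among them. The promoter windows of the 9 members that fell with β-catenin siRNA in both states were in the table for 6, of which 5 held the response element core (83.3%), against 20 of the other 30 members (66.7%). The gamma-activated site was in 2 of these 6 (33.3%) and 11 of the other 30 (36.7%). The other 30 include IFI27, RSAD2 and CXCL11, which were not tested.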

How the data were processed

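The data are 24 one-colour Agilent arrays of HepaRG cells, grouped by their labels into 8 conditions of 3. The intensity values, as deposited by the authors, are spot signals that Agilent Feature Extraction (10.7.3.1 in the submitters' notes) had background-subtracted and detrended on a linear scale. The authors also deposited a table of log2 signals that they had scaled to each array's 75th percentile and centred per probe, and it served as an alternative. Outlier spots were dropped and repeated spots averaged. Each array was scaled to its 75th percentile, and values below a floor of log2 -6.13 (1.43% of that percentile) were raised to it. A probe was kept if well above background on all 3 arrays of a condition, and the brightest kept probe stood for its gene, which applied to 9 members with several probes. RefSeq transcripts gave symbols to 28174 of 50683 probes.

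R 4.3.3 and limma 3.58.1 were used to fit 1 mean per condition, with moderated variances that follow a trend, two-sided tests and Benjamini-Hochberg adjustment over 24648 genes. Python 3.11.15 and matplotlib 3.10.9 drew the figures. The model was tested on simulated data in which noise was drawn independently for each array, without a shared slide effect. The members, the lists (interferon pathway, further interferon-induced genes, NF-κB targets, stress genes, HepaRG and leukocyte markers) and the rule for naming genes were chosen with earlier results of these data known. Every member may be named. Values of every array are given for CTNNB1, for the 5 called members with the largest difference in each comparison of control siRNA with no transfection and of β-catenin siRNA with control siRNA, and for IRF1, IRF7, IRF9, STAT2, ISG15 and CXCL10. Of the other lists, up to 6 called genes each were named, by size, in those comparisons, with the genes above background on 0 arrays. IFNE, IFNK, EPCAM, KRT18, KRT19, AFP, PTPRC, CD68, CD79A, CD3E and IL3RA, and the markers outside the comparisons just given, were named after their values were seen. Alternatives were quantile normalization, normexp (offset 50) on the median signal because the files hold no mean signal, the deposited table, other filters and floors, the mean of a gene's probes, outlier spots kept, spike-in scaling, a block for the replicate number, a fit of the compared conditions alone, the study's thresholds and leaving out arrays or replicates. No set test was run. Some genes of the other lists count in their list's totals and are not reported here by name.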

Additional observations from a re-analysis of the deposited data

How the results depend on the processing

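The 77 calls of CTNNB1 and of the 16 members whose arrays are given were recomputed under all alternatives, which gave 1536 values. Of these, 1260 kept the call and the direction, 276 lost the call and 0 reversed, and 17 of the 77 calls were never lost. Calls were lost most often with spike-in scaling (52), without replicate 1 (45) or replicate 2 (30), and with only the conditions compared (28), a fit that has fewer samples. The 75 calls of the other members gave 1500 values, of which 1110 kept the call and the direction, 388 lost the call and 2 reversed, both SAMD9L with spike-in scaling, and 10 of the 75 calls were never lost. Calls were lost or turned most often with spike-in scaling (58), without replicate 1 (54) or replicate 2 (48), and with only the conditions compared (35). Without a whole replicate, each condition keeps a pair of arrays. The cause was not tested for the changes given next, and signal near background limits CXCL10 and CMPK2.

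The number of members called is given for control siRNA against none, β-catenin siRNA against control siRNA, β-catenin siRNA against none, each without and then with Wnt3a, for Wnt3a in untransfected, control siRNA, β-catenin siRNA and FZD8_CRD cells, and for FZD8_CRD against none without and with Wnt3a. In that order it was 13, 6, 12, 14, 18, 19, 5, 4, 1, 9, 24 and 25 as reported. With spike-in scaling it was 1, 0, 2, 5, 8 and 1, then 0, 0, 0 and 0, and with FZD8_CRD and Wnt3a 5. The median of all genes under that scaling was -0.31, 0.25, 0.05, -0.22, -0.26, 0.01, -0.37, 0.18, -0.10, -0.07, -0.46 and -0.15. With only the conditions compared the count was 0 for control siRNA with Wnt3a, 19 for β-catenin siRNA against control siRNA without Wnt3a, 11 and 9 for β-catenin siRNA against none, 0 for Wnt3a in untransfected, β-catenin siRNA and FZD8_CRD cells, and 15 for FZD8_CRD without Wnt3a. Calling instead at the fold limits of the study (above 1.5 or below 0.7) and p under 0.01 before adjustment, it was 6 and 2 for control siRNA, 8 for β-catenin siRNA against control siRNA with Wnt3a, 11 and 10 for β-catenin siRNA against none, 2, 0 and 3 for Wnt3a in control siRNA, β-catenin siRNA and FZD8_CRD cells, and 14 and 14 for FZD8_CRD. With normexp it was 2 and 0 for Wnt3a in control siRNA and β-catenin siRNA cells. Beside these counts of 0, limma gave 12, 18, 8, 10 and 17 members at an unadjusted p under 0.05 for control siRNA with Wnt3a and for Wnt3a in the 4 groups as reported.

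A block for the replicate number gave a count of 19 for β-catenin siRNA against control siRNA without Wnt3a and 19 with it, 10 for Wnt3a in untransfected cells and 15 with FZD8_CRD, and no call of a member was lost in any of the 12 comparisons. The labels number the replicates and each number is 1 slide, but they do not say that a number marks a shared culture. Deviations of same-numbered arrays correlated at 0.385 on average and those of other numbers at -0.191, and 82 of 84 same-numbered pairs were over 0.1.

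Leaving out arrays or replicates, the count ranged from 1 to 13 and 0 to 10 for control siRNA, 6 to 13 and 4 to 17 for β-catenin siRNA against control siRNA, 4 to 19 and 4 to 18 for β-catenin siRNA against none, 0 to 16, 0 to 3, 0 to 1 and 0 to 20 for Wnt3a, 14 to 25 for FZD8_CRD with Wnt3a, and 0 to 10 for the interaction of FZD8_CRD with Wnt3a.

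Differences that were not called changed sign in these cases. For control siRNA without Wnt3a, spike-in scaling gave GBP1 -0.23, IFI35 -0.22, IFITM1 -0.19, IRF1 -0.24, IRF9 -0.19 and ISG15 -0.23. With Wnt3a, quantile normalization gave IFI6 -0.0126 and ISG15 -0.0155, the deposited table IFI6 -0.0127 and ISG15 -0.0147, and spike-in scaling IRF7 0.0277 and STAT2 0.11. For β-catenin siRNA against control siRNA with Wnt3a, spike-in scaling gave IFI35 -0.18, and STAT2 had 0.00203 with quantile normalization and 0.00144 in the deposited table. Leaving out arrays, control siRNA without Wnt3a gave CXCL10 -0.75 to 0.0978, GBP1 -0.0592 to 0.17, IFI6 -0.14 to 0.0405, IFITM1 -0.0357 to 0.20 and IRF1 -0.12 to 0.14. With Wnt3a it gave IFI6 -0.16 to 0.13, IFITM1 -0.0579 to 0.27, IRF1 -0.0273 to 0.11 and ISG15 -0.00649 to 0.0541. β-catenin siRNA against control siRNA with Wnt3a gave HERC5 -0.18 to 0.0906, IFI35 -0.0474 to 0.14 and STAT2 -0.0833 to 0.0757.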

Other observations

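Of 12 targets of NF-κB, the other main factor of innate immunity, 11 were tested and limma called 6 lower (54.5%, and 10.1% of all genes) for control siRNA against no transfection without Wnt3a, where CXCL1, CXCL2, IL6, RELB and TNFAIP3 had log2 differences of -1.02, -1.08, -1.10, -0.68 and -0.54. With Wnt3a it called 0, with 3 at an unadjusted p under 0.05. For β-catenin siRNA against control siRNA it called 2 lower (18.2%, and 6.16% of all genes) without Wnt3a and 4 (36.4%, and 6.5%) with it, where BIRC3 had -0.70 and -0.36, and CXCL1 had -1.30 with Wnt3a. Of 10 stress genes, control siRNA gave 3 higher (30%, and 12.3% of all genes) without Wnt3a and 1 (10%, and 5.44%) with it, and CDKN1A, an inhibitor of the cell cycle, had 0.77 and 0.68 and CHAC1 0.66 without Wnt3a. β-catenin siRNA against control siRNA gave 1 higher (10%, and 4.4% of all genes) and 2 lower (20%, and 6.16%) without Wnt3a and 1 higher (10%, and 4.08%) with it, and ATF3 had 0.27 and 0.49, CHAC1 -0.82 and TRIB3 -0.48. Of the 12 calls of the NF-κB targets and the 8 of the stress genes in these comparisons, 6 and 4 held on leaving out any single array.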
